A study of Mus musculus with 2 samples.

Results

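The mammalian glycerophosphodiester phosphodiesterases form a small family of enzymes, to which GDE5, the product of *Gde5* (*Gpcpd1*, *Prei4* in the older naming of the array), belongs. The members described here are the genes *Gpcpd1*, *Gde1*, *Gdpd1*, *Gdpd2*, *Gdpd3* and *Gdpd5*, chosen by gene name. The array carried 10 probes for these 6 genes among 41174 non-control probes for 27570 gene names. A single probe for *Gdpd4*, a further relative, is reported beside them. Gene expression was measured in gastrocnemius (GAS) muscle of male C57BL/6 mice, 15 weeks old and on a normal diet, and the design names 5 mice of each genotype. The study describes arrays made after a glucose injection and further ones under fasting, and the labels do not say which state these mice were in. *Gde5* skKO mice carry HSA-Cre, in which the human skeletal actin promoter expresses Cre in myofibers, together with a *Gde5* flox/flox allele whose loxP sites flank an exon of the catalytic domain, so other cells of the muscle keep the gene. The labels call the comparison group wild-type (WT), while floxed littermates without Cre served as controls in the contraction, glucose tolerance and fasting tests of the study, so the controls here may be floxed too. A pair of arrays compared the genotypes with the dyes swapped: *Gde5* skKO RNA carried Cy5 on array 1 and Cy3 on array 2. Whether RNA of several mice was pooled, or both arrays held the same RNA, is not given, so the spread between arrays may be technical only.

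Many enzymes of the family cut a glycerophosphodiester into an alcohol and glycerol 3-phosphate or a related lysophosphatidic acid. GDE5 acts in the cytosol on glycerophosphocholine (GPC), the water-soluble remnant of phosphatidylcholine (PC), and releases choline and glycerol 3-phosphate. Several relatives sit in membranes and prefer other substrates, so the family links phospholipid turnover with choline supply, lysophospholipid signaling and the shedding of lipid-anchored proteins.

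The tissue label was compared with marker genes first. All 12 skeletal muscle markers gave signal, and none of their 18 measured probes was called in either direction (median log2 ratio -0.02), where 3.07% of all measured probes were called by the rule given below. *Acta1*, skeletal actin, read 0.20 on array 1 and 0.15 on array 2, *Ckm*, muscle creatine kinase, read 0.14 and -0.11, and *Tnni2*, fast troponin I, read -0.12 and -0.21. Signal was well above background in 53.2% of *Gde5* skKO and 45.6% of WT spots on array 1, and in 44.6% and 47.4% on array 2. No spot was saturated. The number of arrays limits the precision.

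A signal is the processed fluorescence of 1 channel, in array units, and depends on the probe. Signals of different probes were therefore not compared as expression levels. They served only to choose which uncalled member of a list was named, and were summed for the fat list. A log2 ratio is that of *Gde5* skKO over WT on 1 array, given with the software's error (1 SD) of the spot. A probe was measured if, on each array, the signal of at least 1 genotype was well above background, and called if its ratio had the same direction on both arrays with the Feature Extraction p-value under 0.05 on each. This p-value speaks for the spots of an array, not for mice, and 95% intervals rest on the same error, taken as independent between arrays.

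Of the 10 family probes 8 were measured, covering 4 of the 6 genes. Among them 3 were called lower and 0 higher. All 3 belonged to *Gde5*, the targeted gene. Across the array 301 of 19094 measured probes were called lower (1.58%) and 285 higher (1.49%), together 586 (3.07%). With neither array turned, so that ratios ran with the dyes, 322 probes (1.69%) met the same rule.

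*Gde5* was covered by 4 probes, numbered here from its 3′ end. They lie on the minus strand of chromosome 2 in the mm8 coordinates of the array annotation. Probe 1 (A_52_P470017, chr2:132221088-132221147) and probe 2 (A_51_P464791, chr2:132221110-132221169) overlap by 38 bases and are not independent measures. Probe 3 (A_52_P384069, chr2:132225539-132225598) lies 4.45 kb upstream of probe 1. Probe 4 (A_52_P407755, chr2:132256048-132256107) lies 34.96 kb upstream. The annotation ties probes 1 to 3 to a shared pair of RefSeq mRNAs of *Gde5*, and probe 3 to a further one. It ties probe 4, under the same gene name, to a cDNA clone and to no RefSeq mRNA. RefSeq (GRCm38.p6, another build) gives the gene a length of 49.2 kb and 11 curated mRNAs. The floxed exon could not be placed on the coordinates of the array, so no probe is known to lie in it.

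At probe 1 the WT signal was 13392 on array 1 and 17840 on array 2, and the *Gde5* skKO signal was 2229 and 1850. The genotypes did not overlap. The log2 ratio was -2.59 ± 0.31 on array 1 and -3.27 ± 0.37 on array 2, with Feature Extraction p-values of 2e-16 and 4.9e-19. Knockout muscle thus kept 16.6% of the WT signal on array 1 (95% interval from the software's error, 10.9 to 25.5) and 10.4% on array 2 (6.30 to 17.1). In bulk muscle RNA, fewer expressing cells and less RNA per cell cannot be told apart.

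Probe 2, which shares most of its bases with probe 1, gave WT signals of 13034 and 15747 and *Gde5* skKO signals of 2023 and 1662. Its log2 ratios were -2.69 ± 0.32 and -3.24 ± 0.36, or 15.5% and 10.6% of WT. Both arrays again placed knockout far under WT, and the gap between arrays (-0.56 ± 0.49) was close to the error of that gap.

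Probe 3 gave WT signals of 762 and 851 and *Gde5* skKO signals of 90.9 and 87.2. Its log2 ratios were -3.07 ± 0.36 and -3.29 ± 0.38, or 11.9% and 10.2% of WT. Its knockout spots were dim: their unprocessed mean was 61.1 over a local background of 37.5 on array 1, and 61.7 over 34.0 on array 2. The size of this ratio depended on how background was handled. With normexp (offset 50) and loess in limma it was -1.46, or 36.4% of WT, and with no background correction it was -1.64.

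Probe 4 behaved otherwise. Its WT signals were 6917 and 7610, and its *Gde5* skKO signals were 6679 and 5512. The log2 ratio was -0.05 ± 0.20 on array 1 and -0.47 ± 0.21 on array 2, with Feature Extraction p-values of 0.805 and 0.0255, so it was not called. The mean, -0.26, had a 95% interval of -0.54 to 0.03 from the software's error, which excludes the ratios of the other 3 probes. Without array 1 the value was -0.47 and passed the threshold.

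**Figure D1:**
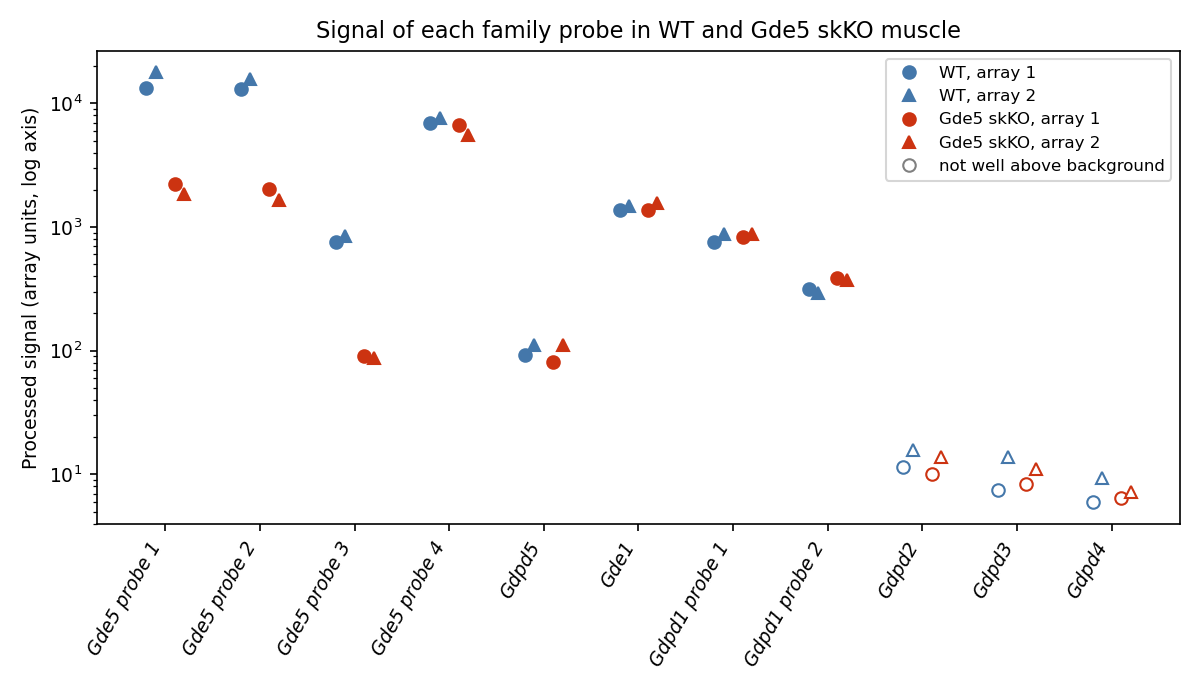
Processed signal in array units (log axis) of the 11 probes in WT (blue) and Gde5 skKO (red) on array 1 (circles) and array 2 (triangles), open where not well above background. Knockout signals lie far under WT at Gde5 probes 1 to 3, for example 2229 against 13392 on array 1 at probe 1, and Gdpd2, Gdpd3 and Gdpd4 are open in every channel.

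The difference between the probes of *Gde5* was itself taken on each array. Probe 1 lay under probe 4 by a log2 difference of -2.54 ± 0.38 on array 1 and -2.80 ± 0.42 on array 2. For probe 2 the differences were -2.64 and -2.78, and for probe 3 -3.02 and -2.82. Each of these 6 differences exceeded its error several times. The 3 probes tied to *Gde5* mRNAs therefore fell by more than the upstream probe on both arrays. These differences rest on Feature Extraction ratios. With normexp and loess, probe 3 read -1.53 on array 1 and -1.39 on array 2. Probe 4 then read -0.08 and -0.45, so the difference at probe 3 was smaller.

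Such disagreement was rare on these arrays. Over 4092 genes with at least 2 measured probes, the gap between the highest and lowest mean log2 ratio of a gene had a median of 0.17 and a 95th percentile of 0.68. The gap of *Gde5* was 2.92 and ranked 1 of all 4092. Where only the 3523 genes measured in both channels were taken, *Gde5* again ranked 1, followed by *Dynll2*, a dynein light chain, at 2.59. With normexp and loess the gap of *Gde5* was 2.52 and ranked 1 of 4121 genes.

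**Figure D2:**
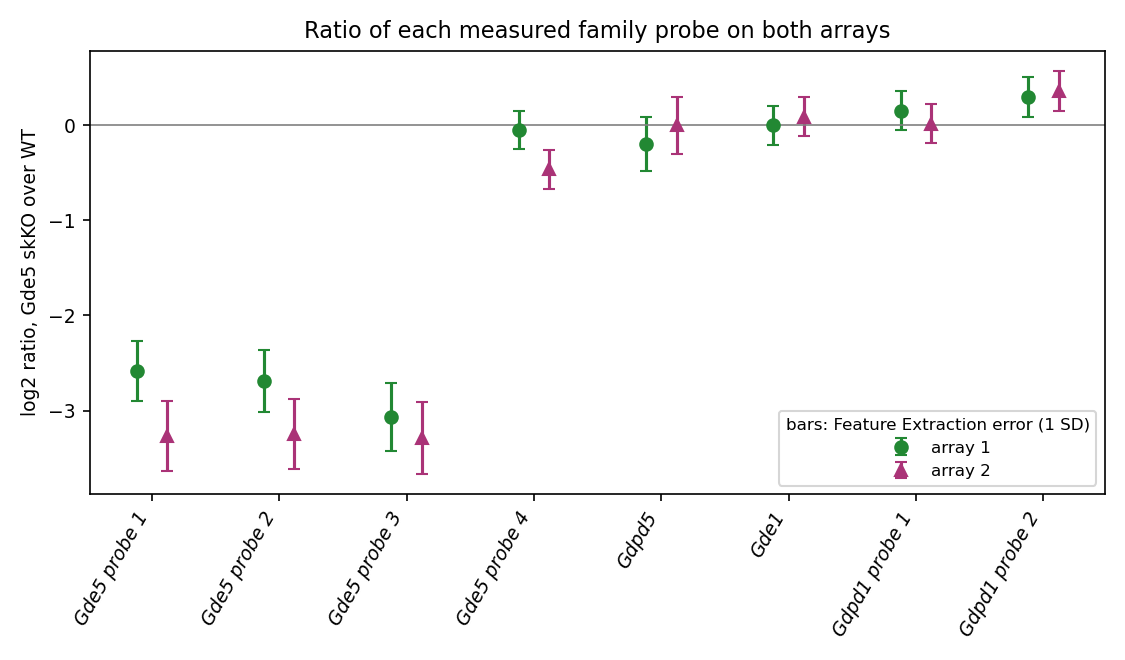
Log2 ratio of Gde5 skKO over WT for the 8 measured family probes on array 1 (circles) and array 2 (triangles), with bars of 1 SD from the Feature Extraction error model. Gde5 probes 1 to 3 lie between -2.59 and -3.29, and the other probes between -0.47 and 0.36.

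By Feature Extraction ratios, probes 3, 2 and 1 had the 3 lowest mean log2 ratios of all 19094 measured probes, at -3.18, -2.97 and -2.93. Probe 4 ranked 1981 from the lowest. The central 95% of probes lay between -0.53 and 0.57, and 93.5% lay within 0.5 of 0. Only 5 probes were under -2.5, and the 3 of these that both genotypes lit above background were *Gde5* probes 1 to 3. With normexp and loess, probes 1 and 2 ranked 1 and 2 from the lowest and were the 2 probes under -2.5, while probe 3 ranked 6, at -1.46. limma's moderated test, with Benjamini-Hochberg adjustment over all measured probes, gave probes 1 to 3 adjusted p = 3.97e-05, 0.000287 and 0.00181 and probe 4 adjusted p = 0.617. It called 80 probes lower in all (0.419%). The p-values of limma, here and below, rest on the spread between the arrays. That spread may be technical only, so they cannot be taken to speak for mice.

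**Figure D3:**
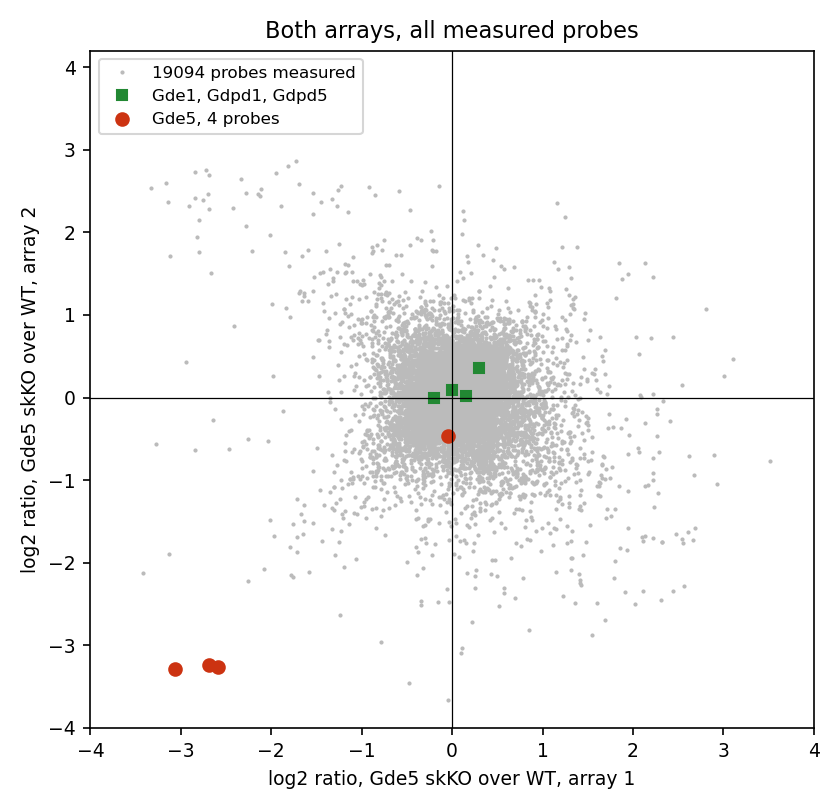
Log2 ratio of Gde5 skKO over WT on array 1 (horizontal) and array 2 (vertical) for the 19094 measured probes (grey), Gde5 (red) and the measured probes of Gde1, Gdpd1 and Gdpd5 (green). Gde5 probes 1 to 3 stand apart at the lower left, from -2.59 to -3.07 on array 1, and probe 4 lies in the main cloud.

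No probe of another member was called, where 3.07% of all measured probes were, a share at which 0 of 4 is no result about these genes. The 4 remaining probes, of *Gdpd5*, *Gde1* and *Gdpd1*, had a median of 0.06 for the mean of both arrays, beside 0.02 over all measured probes, and their values on single arrays ran from -0.20 to 0.36.

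*Gdpd5* encodes GDE2, a membrane enzyme known for GPC breakdown in kidney cells and for cutting the lipid anchors of surface proteins. Its probe (chr7:99334675-99334734) gave WT signals of 92.4 and 110 and *Gde5* skKO signals of 80.7 and 110. The log2 ratio was -0.20 ± 0.29 on array 1 and 0.00 ± 0.30 on array 2. The mean of -0.10 had a 95% interval of -0.50 to 0.31. The groups did not differ beyond that error, and the dim signal left the widest interval among the measured members other than *Gde5*.

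*Gde1* encodes a membrane glycoprotein that hydrolyzes glycerophosphoinositol and precursors of N-acyl ethanolamines. Its probe (chr7:118480278-118482769 on mm8, a span longer than the 60 bases that 85.4% of placed probes cover) gave WT signals of 1384 and 1471 and *Gde5* skKO signals of 1380 and 1561. The log2 ratios were 0.00 ± 0.20 and 0.09 ± 0.20, and the mean of 0.04 had a 95% interval of -0.24 to 0.32. Knockout and WT overlapped, and the interval excludes any change of the size seen at *Gde5* probes 1 to 3.

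*Gdpd1* encodes GDE4, a lysophospholipase D type enzyme that makes lysophosphatidic acid. It had a pair of probes. At the first (chr11:86850185-86850244) WT signals were 750 and 875 and *Gde5* skKO signals 834 and 883, with log2 ratios of 0.15 ± 0.21 and 0.01 ± 0.21. At the second (chr11:86851451-86851806) WT signals were 315 and 291 and *Gde5* skKO signals 386 and 372. Knockout was above WT there on both arrays, at 0.30 ± 0.21 and 0.36 ± 0.21, with Feature Extraction p-values of 0.159 and 0.0931. This probe was not called. Its mean of 0.33 had a 95% interval of 0.03 to 0.62, and that of the first probe, 0.08, had an interval of -0.20 to 0.37. limma's moderated test gave the second probe a log2 ratio of 0.22 with an adjusted p = 0.608 (unadjusted, 0.0489), where 780 of all measured probes (4.09%) were higher at an unadjusted p under 0.05.

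*Gdpd3*, which encodes the related lysophospholipase D GDE7, and *Gdpd2*, which encodes the membrane enzyme GDE3, were not well above background in either genotype on either array. The unprocessed mean of the *Gdpd2* spot (chrX:96940856-96941002) was 47.9 in WT and 45.0 in *Gde5* skKO on array 1, over local backgrounds of 40.0 and 42.0. On array 2 it was 46.1 and 50.6 over 45.0 and 39.0. The *Gdpd3* spot (chr7:126562154-126562327) read 47.2 in WT and 41.7 in *Gde5* skKO on array 1, and 44.2 and 48.2 on array 2. *Gdpd4*, the further relative, was likewise not well above background (chr7:97924155-97924214). The deposited ratio of these 3 probes is exactly 0, a placeholder the software writes where both channels are substituted, and no fold is given.

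The windows upstream of the start sites show a sequence feature on which some detected and undetected relatives can be set side by side. RefSeq promoters were matched for 5 of 7 genes, *Gdpd4* included. The sequences are the 250 bases before the start site on GRCm38.p6, 5′ to 3′, shown for the detected *Gde1* and *Gdpd1* and the undetected *Gdpd3*, with each CG dinucleotide in capitals.
Gde1, chr7:118705739-118705988, minus strand: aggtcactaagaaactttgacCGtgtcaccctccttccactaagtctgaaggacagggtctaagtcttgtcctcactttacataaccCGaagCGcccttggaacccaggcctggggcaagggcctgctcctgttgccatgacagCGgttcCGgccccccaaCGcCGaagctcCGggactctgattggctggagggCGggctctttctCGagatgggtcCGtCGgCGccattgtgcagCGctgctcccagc
Gdpd1, chr11:87074138-87074387, minus strand: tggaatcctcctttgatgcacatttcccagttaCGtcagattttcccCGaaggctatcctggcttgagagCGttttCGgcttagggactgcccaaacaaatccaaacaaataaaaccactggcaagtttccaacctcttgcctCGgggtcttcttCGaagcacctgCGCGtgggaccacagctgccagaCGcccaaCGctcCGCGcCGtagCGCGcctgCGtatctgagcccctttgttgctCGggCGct
Gdpd3, chr7:126766164-126766413, plus strand: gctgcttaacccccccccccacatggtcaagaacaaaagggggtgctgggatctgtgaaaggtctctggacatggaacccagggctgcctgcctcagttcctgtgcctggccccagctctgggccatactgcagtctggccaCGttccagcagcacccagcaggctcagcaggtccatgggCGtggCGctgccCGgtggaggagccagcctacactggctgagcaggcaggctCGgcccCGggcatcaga
CG, which reads the same on both strands, occurred 14 times upstream of *Gde1*, 18 times upstream of *Gdpd1* and 6 times upstream of *Gdpd3*. The windows of *Gdpd2* held 2 and 7 and that of *Gdpd4* held 7. At least 1 CG was present in 92.1% of all 32851 RefSeq windows of this length, and the median was 6. Among genes with a probe on the array the median was 17 for the 9381 measured genes and 5 for the 6195 that were not. The counts of *Gde1* and *Gdpd1* lay nearer to the first median and those of *Gdpd2*, *Gdpd3* and *Gdpd4* nearer to the second. *Gde5* and *Gdpd5*, both detected, are not in this comparison. This is a description of letters in a window, and these data hold no binding or methylation.

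The chromosome around *Gde5* was examined for changes near the floxed allele. Within 500 kb of its probes lay 24 other probes for 15 genes, of which 10 probes for 8 genes were measured. The nearest measured probes were of *Cds2*, at -218 kb from probe 1, and *Shld1*, at 221 kb. Closer probes, of 1700026D11Rik, 4921508D12Rik and *Prokr2*, were not measured, so the genes next to the floxed allele were not read. None of the 10 measured probes was called in either direction, where 3.07% of all measured probes were, a share at which 0 of 10 is no result about the interval. Their mean log2 ratios ran from -0.10 (*Trmt6*, a subunit of a tRNA methyltransferase) to 0.36 (*Mcm8*, a DNA helicase), with a median of 0.04. *Pcna*, the sliding clamp of DNA replication, was read by 10 spots and had a mean of -0.03. None of these values left the range within which most probes of the array lay. *Crls1*, which makes cardiolipin, had 0.02, and *Slc23a2*, a vitamin C transporter, had 0.13. *Cds2*, which makes CDP-diacylglycerol for phosphatidylinositol synthesis, read -0.03, 0.13 and -0.01 at its 3 measured probes. *Tmem230* had 0.05 and *Shld1*, a DNA repair factor, had 0.26.

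**Figure D4:**
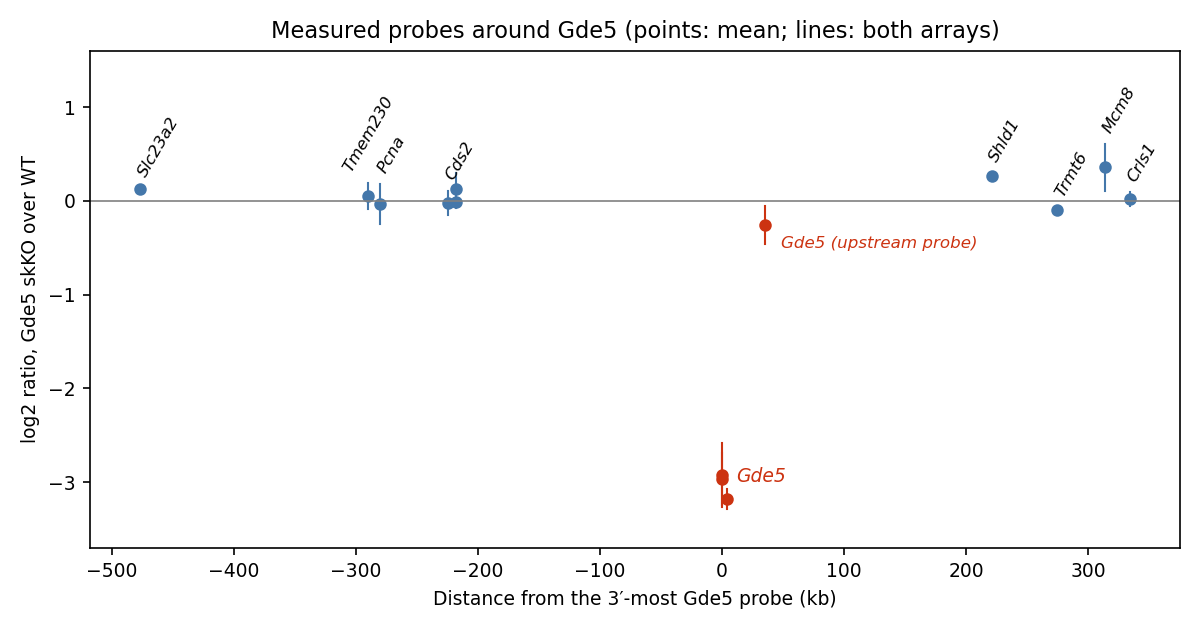
Log2 ratio of Gde5 skKO over WT against the distance in kb from the 3′-most Gde5 probe, for Gde5 (red) and the 10 measured neighboring probes (blue); points are means and lines join both arrays. Neighbors lie between -0.10 and 0.36, and Gde5 probes 1 to 3 near -3.

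Genes of the pathway around the family were counted next, from 6 lists of 55 genes in all. Of these, 37 genes with 56 probes were measured, and 0 probes were called lower and 3 higher, with a median log2 ratio of 0.06. Of all measured probes, 1.49% were called higher. The 2 higher probes among 15 in the list of enzymes making GPC or its lysophospholipid precursors were those of *Lyplal1* and *Pla2g4b* (list median 0.01). *Lyplal1*, a lysophospholipase-like serine hydrolase, had WT signals of 15.5 and 22.2 and *Gde5* skKO signals of 38.7 and 60.7. Its WT signal was not well above background on either array, so no fold is given. With normexp and loess in limma its log2 ratio was 0.15 (adjusted p = 0.876). *Pla2g4b*, a cytosolic phospholipase A2, read 0.47 and 0.72 at 1 probe, while its other measured probes averaged 0.03 and 0.00. With normexp and loess in limma the called probe of *Pla2g4b* read 0.26 (adjusted p = 0.495). *Lypla2*, a lysophospholipase of the same list, read 0.02 and 0.12.

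The list of choline uptake and use had 1 higher probe among 13 and a median of 0.16. This was *Chpt1*, cholinephosphotransferase, which joins CDP-choline and diacylglycerol to PC. At this probe WT signals were 2028 and 2561 and *Gde5* skKO signals 3266 and 3544, with log2 ratios of 0.69 and 0.47. The other measured probes of *Chpt1* averaged 0.06 and 0.43 and were not called, and limma's adjusted p at the called probe was 0.0889. Choline kinase genes were not called, with *Chkb* at 0.22 and 0.20 and *Chka* at 0.23.

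None of the probes in the other 4 lists was called, which is near the share over all measured probes (3.07%). Glycerol 3-phosphate metabolism had a median of 0.14 over 15 probes, with *Gpd1*, the cytosolic glycerol 3-phosphate dehydrogenase, at 0.14 and 0.05 and *Tpi1*, triosephosphate isomerase, at 0.24. Other phosphodiesterases of GPC or lysophospholipids had a median of -0.09 over 3 probes, with *Smpdl3a* at -0.09. The N-acyl ethanolamine path had a median of 0.01 over 6 probes, with *Abhd4* at 0.04. Partners of GDE1 and GDE2 had a median of -0.13 over 4 probes, with *Rabac1* at -0.10, and the list median was -0.30 on array 1 and 0.05 on array 2, so the arrays differed in sign.

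Several fat markers moved beside the loss of *Gde5*. Among fat markers, 6 of 9 measured probes were called lower, for 5 of 7 genes, with a median of -0.70, beside 1.58% called lower over all measured probes. By limma's adjusted p, 2 of these 6 remained (*Adipoq*, 0.0184, and *Cfd*, 0.0109), beside 0.419% of all measured probes, and 4 were lost. The list median with normexp and loess was -0.34, with *Retn* at -0.37 and -0.34 and *Plin1* at -0.33. *Adipoq*, adiponectin, read -0.97 and -1.03, from 824 to 420 on array 1 and from 863 to 423 on array 2. *Plin1* averaged -0.69, *Cfd* -0.90, *Cidec* -0.70 and *Retn* -1.20 and -0.83 at its probes. The 3 probes of *Fabp4*, the fatty acid binding protein of fat cells, were not called (0.05, 0.01 and -0.11). The summed signal of the list, in WT and *Gde5* skKO, was 79531 and 77105 on array 1 and 78139 and 76376 on array 2. *Fabp4* probes hold most of that sum, and since brightness depends on the probe it does not weigh the genes evenly. *Lep*, leptin, was not well above background. The part of fat cells in the ratios of the family was not tested.

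Other marker lists held 1 call. Endothelium had 7 measured probes with *Kdr*, a VEGF receptor, higher at 0.43 and 0.40 (limma adjusted p = 0.205), and a median of -0.03. Fibroblast and tendon had 0 of 7 called (median -0.03), leukocytes 0 of 3 (-0.18), erythrocytes 0 of 2 (-0.18), Schwann cells 0 of 3 (-0.21) and satellite cells 0 of 1 (0.29). Over all measured probes 3.07% were called. At that share, 0 or 1 call in lists this short is no result about these cells. *Cdh5*, a cadherin of endothelium, averaged -0.09 at its brighter probe and -0.83 at its other measured probe, and neither was called. The latter read -0.14 on array 1 and -1.52 on array 2, and -0.27 with normexp and loess in limma. The mean log2 ratio was 0.05 for *Col1a2*, a collagen chain. It was -0.25 for the macrophage gene *Adgre1*, -0.12 for the globin *Hba-a1*, -0.33 for *S100b* and 0.29 for *Pax7*, a satellite cell factor. *Pax7* read -0.19 on array 1 and 0.76 on array 2, so its arrays differed in sign. Of the liver list only *Alb* was measured, at -1.03 and -0.28 and not called, and *Apoa1*, *Apoa2* and *Ttr* were not well above background. Of the bone list *Ibsp* was matched and was not well above background. A probe named *Bglap*, osteocalcin, whose listed name fits more than 1 RefSeq gene, was outside the count. It was called lower, with WT signals of 125 and 164 and a knockout signal not well above background on either array.

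The probes most like *Gde5* probe 1 were those with the smallest distance between their pair of log2 ratios and its own, over the 2 arrays and 17488 probes with WT signal, leaving out *Gde5* itself. *Dynll2* was nearest, at a distance of 1.09, with -2.26 and -2.23. It was followed by *Ccdc71* at 1.29, *Dkk3*, a secreted Wnt modulator, at 1.37 and the unnamed transcript C130006E23 at 1.38. All of these lay further from probe 1 than probe 2 and probe 3 did. *Bglap* was listed after them, and no distance is given for it. Other probes of *Dynll2* read 0.35 and -0.54, and that of *Ccdc71* read 0.14, so neither gene was low at all of its probes. The knockout signal of *Bglap* was not well above background on either array, so the size of its ratio was not measured on both sides, and with normexp and loess in limma it was -0.49.

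**Figure D5:**
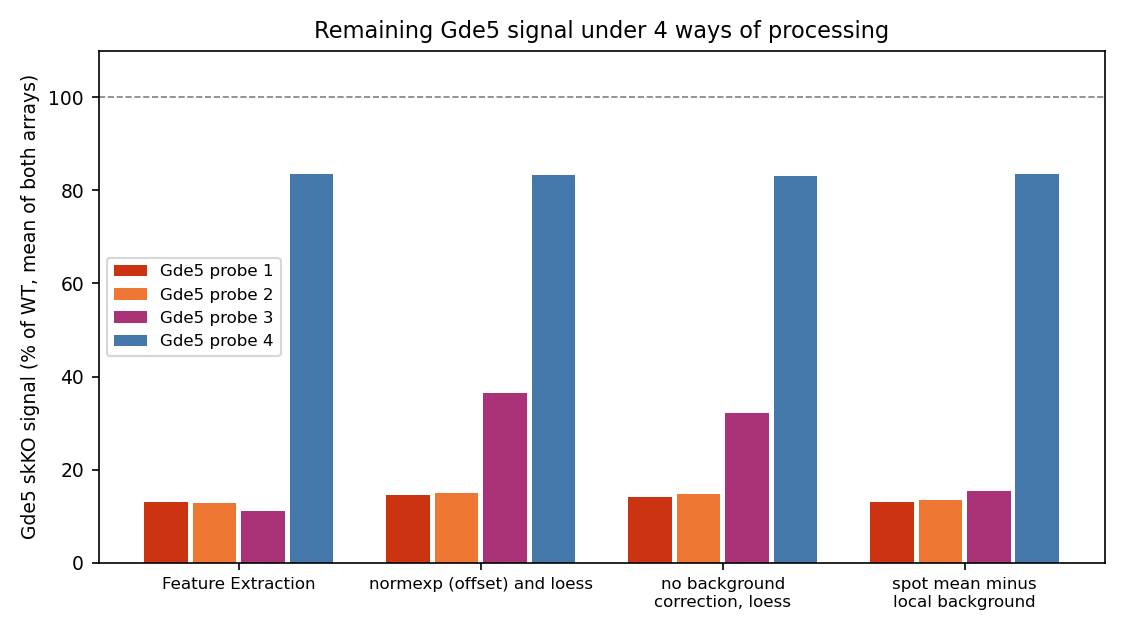
Remaining Gde5 signal in Gde5 skKO as a percentage of WT (mean of both arrays, axis from 0, dashed line at 100) for Gde5 probes 1 to 4 under 4 ways of processing. Probes 1 and 2 stay between 12.8% and 15.1%, probe 4 near 83%, and the dim probe 3 moves from 11.1% to 36.4%.

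The remaining *Gde5* signal at probes 1 and 2 was nearly the same however the scans were processed. It was 13.1% and 12.8% of WT with Feature Extraction, 14.5% and 15.1% with normexp and loess, 14.1% and 14.9% with no background correction, and 13.2% and 13.4% with the plain spot mean minus local background. Probe 3 gave 11.1%, 36.4%, 32.1% and 15.5% in the same order. Probe 4 gave 83.6%, 83.3%, 83.2% and 83.6%. For probe 4 the plain spot means gave opposite signs on the arrays, with log2 ratios of 0.25 and -0.77.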

How the data were processed

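The authors scanned both arrays, which lie on 1 slide and come from 1 scan, and extracted them with Feature Extraction 9.5.3.1. Each deposited file lists for every spot the log10 of red over green signal, background-subtracted and dye-normalized by the software. The deposited files also hold the software's error of that value, used here as a score of precision, and its p-value. The deposited intensity of each spot and its local background was used in the alternatives. The authors' series table holds the same log10 values with array 2 in its own dye direction.

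Values were put on the log2 scale as knockout over WT, by the dyes of the labels, and the spots of each probe were averaged (43379 spots, 41174 probes). Control spots, spots with outlier marks (164 and 200) and 14 debris spots on array 1 with a local background above 3 times the median were left out. None was a family spot. Names came from RefSeq by accession for 24375 probes, by symbol for 6301 and by synonym for 2426, and 8072 kept the array's name. Coordinate order gave the strand, as in RefSeq for 98.9% of 26168 probes.

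The members and lists were chosen with earlier results of these data known. The lists were 6 of the pathway (making GPC, other phosphodiesterases, choline uptake and use, glycerol 3-phosphate, the N-acyl ethanolamine path, partners) and 10 of markers (skeletal muscle, fat, endothelium, leukocyte, erythrocyte, fibroblast and tendon, Schwann cell, satellite cell, liver, bone). Genes were named by rule: all family probes, called list members and the member of each list with the highest signal not called, genes within 500 kb and the 5 probes most alike. *Gpd1*, *Chka*, *Chkb*, *Acta1*, *Ckm*, *Lep*, *Apoa1*, *Apoa2*, *Ttr* and *Ibsp* were named after their values were seen.

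Calls needed p under 0.05 on both arrays. Alternatives were normexp (offset 50) and loess with the moderated test in limma 3.58.1 under R 4.3.3, the methods' t-test of the channel signals, other thresholds and filters, and 1 array alone. Steps were tested on simulated data. The other steps ran in Python 3.11.15 with pandas 2.3.3, numpy 2.4.6, matplotlib 3.10.9 and scipy 1.17.1.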

Additional observations from a re-analysis of the deposited data

How the results depend on the processing

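*Gde5* probes 1 to 3 were lower in *Gde5* skKO under every alternative run, and at least 3 family probes were called lower under each (4 without array 1, probe 4 being the added one) except the methods' t-test after Benjamini-Hochberg adjustment, which called 0 family probes, 0 lower and 0 higher over the array, and 0 pathway probes. *Gde5* probe 4 was -0.47 and passed the threshold without array 1, and was -0.050 without array 2. The second *Gdpd1* probe was the 1 family probe called higher by limma's unadjusted test (0.22) and by the methods' t-test (0.33). *Gde1* read -0.0035 on array 1 alone and 0.086 on array 2 alone. Calls over all probes, 301 lower and 285 higher, were 774 and 780 by limma's unadjusted test, 80 and 46 after its Benjamini-Hochberg adjustment, 751 and 853 by the methods' t-test, 155 and 129 at p under 0.01, 72 and 48 where the mean had to reach 1 in size, 88 and 62 with Benjamini-Hochberg adjustment per array, and 1004 to 1314 lower and 1369 to 1505 higher on 1 array. Pathway probes, 0 lower and 3 higher, were 1 lower by the methods' t-test, 0 to 2 lower and 6 higher on 1 array, 0 higher with limma's adjustment, at p under 0.01 and with adjustment per array, and 1 higher where the mean had to reach 1. The causes were not tested. The ratio from plain spot means was added after seeing the data. No further paired analysis was possible because each array holds both genotypes, so its log ratio, which limma tested, is already the paired difference. Probe 3 in knockout and *Gdpd5* were limited by signal near background.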
